A study of Mus musculus with 16 samples.

Results

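The 8 genes described here encode the enzymes that make and break down cyclic nucleotides in striatal neurons: the adenylyl cyclase Adcy5 and the phosphodiesterases Pde10a, Pde1b, Pde1a, Pde2a, Pde7b, Pde4b and Pde4d. They were taken by gene symbol from long-read isoform tables that held reads of 21626 annotated genes. Adenylyl cyclases convert ATP to cyclic AMP (cAMP) downstream of G protein-coupled receptors, and in the projection neurons of the striatum dopamine and adenosine receptors act largely through ADCY5. Phosphodiesterases hydrolyse cAMP, cyclic GMP (cGMP) or both, and so set how long and how far a signal lasts. PDE10A and PDE1B are known for their abundance in striatal projection neurons, the cells most affected in Huntington's disease.

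The tables came from PacBio Iso-seq, in which full-length cDNA is read from end to end, of cortex and striatum from male mice. Mice were either R6/2, which carry a transgene of exon 1 of human HTT with an expanded CAG repeat, or their non-transgenic (NT) counterparts, on the B6CBA background. There were 16 samples, 4 for each of cortex NT, cortex R6/2, striatum NT and striatum R6/2. R6/2 is an early-onset model that expresses an HTT fragment and not the whole gene, and the tissue was bulk tissue, so a difference in level can come from fewer cells of a type or from less RNA per cell, and these cannot be told apart. The labels do not say whether cortex and striatum samples of the same number came from the same mouse.

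Libraries held between 252885 and 808814 reads in cortex and between 317050 and 1496196 in striatum. In the striatum, NT samples 1 and 2 and R6/2 samples 2 and 3 each had 2 deposited count sets, which were summed. The mean isoform length of these 4 samples was 2141 to 2225 nt, against 1618 to 1885 nt in the other 4 striatal samples. This is the listed length of the isoform that each read was assigned to, and the length of the reads themselves was not measured. The number of count sets was a term in the striatal genotype test. It was chosen because, in earlier results of these same data, it separated striatal samples more than genotype did. The tissue labels held against 8 markers of striatal projection neurons, whose summed level was 10298 to 14170 CPM (library-size-scaled reads, with TMM factors) in striatum NT and 391 to 476 CPM in cortex NT. Choroid plexus markers varied most within a group, from 36.8 to 9571 CPM among the 4 striatum NT samples.

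Start regions of the 4 genes that were called lower in the R6/2 striatum, and of Pde4b, which was not, are shown so that the genes that fell together can be read beside one that did not. Each is the RefSeq window of 300 bases, 250 before and 50 after the start site, on GRCm38.p6 (mm10), plus strand. Capitals mark every match to a GC box (GGGCGG or CCGCCC on the other strand), and no other motif searched was found in these 5 windows.

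Adcy5: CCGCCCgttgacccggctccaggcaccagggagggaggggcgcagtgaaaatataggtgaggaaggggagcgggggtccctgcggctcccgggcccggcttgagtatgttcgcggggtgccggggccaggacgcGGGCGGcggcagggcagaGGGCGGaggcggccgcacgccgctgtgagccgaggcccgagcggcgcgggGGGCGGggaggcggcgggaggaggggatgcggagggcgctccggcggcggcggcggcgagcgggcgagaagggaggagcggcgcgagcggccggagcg
Pde10a: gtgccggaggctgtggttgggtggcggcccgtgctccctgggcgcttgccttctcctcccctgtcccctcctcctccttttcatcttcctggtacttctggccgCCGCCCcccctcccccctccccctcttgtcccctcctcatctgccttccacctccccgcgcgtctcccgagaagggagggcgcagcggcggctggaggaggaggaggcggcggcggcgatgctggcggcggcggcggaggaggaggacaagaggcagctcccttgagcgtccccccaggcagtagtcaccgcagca
Pde1b: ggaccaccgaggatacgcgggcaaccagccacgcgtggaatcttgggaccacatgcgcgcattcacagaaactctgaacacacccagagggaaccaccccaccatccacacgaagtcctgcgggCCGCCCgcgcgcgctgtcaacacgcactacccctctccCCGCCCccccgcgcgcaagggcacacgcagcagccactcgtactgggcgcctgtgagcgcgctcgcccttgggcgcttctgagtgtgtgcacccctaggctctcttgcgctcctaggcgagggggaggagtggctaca
Pde2a: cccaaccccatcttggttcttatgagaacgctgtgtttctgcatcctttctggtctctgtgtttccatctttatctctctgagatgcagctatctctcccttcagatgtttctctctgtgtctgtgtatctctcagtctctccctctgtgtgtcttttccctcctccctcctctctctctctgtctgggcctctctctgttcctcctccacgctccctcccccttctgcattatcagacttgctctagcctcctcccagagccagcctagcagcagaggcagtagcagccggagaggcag
Pde4b: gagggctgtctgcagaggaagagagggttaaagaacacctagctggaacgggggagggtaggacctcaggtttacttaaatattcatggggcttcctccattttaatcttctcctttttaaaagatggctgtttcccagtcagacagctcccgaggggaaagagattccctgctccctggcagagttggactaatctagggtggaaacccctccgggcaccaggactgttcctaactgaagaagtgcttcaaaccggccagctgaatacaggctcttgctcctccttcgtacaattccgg

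The windows lie at chr16:35154614-35154913 (Adcy5), chr17:8801495-8801794 (Pde10a), chr15:103502784-103503083 (Pde1b), chr7:101421441-101421740 (Pde2a) and chr4:102589593-102589892 (Pde4b). For each gene the window nearest to the start of its most-read known isoform was taken, from 4 windows for Pde4b, 5 for Pde2a, 3 for Pde1b, 2 for Pde10a and 1 for Adcy5. Adcy5 held 4 GC boxes, Pde1b 2 and Pde10a 1, while the Pde2a and Pde4b windows shown held none. Among the windows not shown, that of Pde2a at chr7:101451002-101451301 held 5 GC boxes and one of Pde10a held 1, and the known isoform nearest to the former had 1 read. A GC box was present in 35.7% of all 32851 windows of this kind. The full cAMP response element (TGACGTCA) was in none of the 21 windows of the 8 genes and in 1.79% of all windows. Its short form (TGACG, either strand, which the full element contains), the CCAAT box (CCAAT, either strand) and the TATA box (TATAAA, either strand) were also absent from the 5 windows shown, against 20.8%, 37.4% and 13.6% of all windows. Windows not shown did hold them: the short form for Pde1a, Pde4b and Pde2a, the CCAAT box for Pde1a, Pde4b, Pde2a and Pde10a, and the TATA box for Pde1a and Pde1b. The G+C content was 79.0% for Adcy5, 71.3% for Pde10a, 67.0% for Pde1b, 53.3% for Pde2a and 51.3% for Pde4b. A match or its absence describes these letters and says nothing of which factor binds there.

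The first comparison was R6/2 against NT in the striatum. Of the 8 genes, 4 fell: Pde10a 4.53-fold, Adcy5 3.57-fold, Pde1b 1.83-fold and Pde2a 1.75-fold. None rose, and Pde4b and Pde1a did not pass the test. Of the 8, 6 passed the filter on low counts, and the 4 called lower stand against 3.83% of 7657 genes tested that were called lower and 4.32% called in either direction at an adjusted p under 0.05 (edgeR quasi-likelihood test, Benjamini-Hochberg over all genes tested). With no filter all 8 genes were tested, and Pde7b was also called lower, with values given below. The shares above are of the filtered genes and do not apply to that fit. In the same samples 6 of 8 markers of striatal projection neurons fell. Drd1 (log2 -0.37, adjusted p = 0.79, edgeR) and Tac1 (-0.22, adjusted p = 0.61, edgeR) were not called. Over the 8 markers the median log2 fold change was -1.86, and their summed level was 1914 to 3335 CPM in R6/2. Of the other markers tested, 1 of 1 of cortical excitatory neurons (Nrgn), 1 of 5 of oligodendrocytes (Mobp) and 1 of 5 of astrocytes (Aldoc) fell, and 0 of 5 of microglia, 0 of 2 of endothelial cells and 0 of 1 of choroid plexus changed. The summed astrocyte markers were 1823 to 3633 CPM in striatum NT and 1175 to 1590 CPM in striatum R6/2. For the remaining cell types the summed ranges of the genotypes overlapped. Nrgn did not set the regions apart in NT mice (striatum against cortex, log2 0.05, SE 0.49, adjusted p = 0.97, edgeR). The part that the lower marker RNA plays in the values below was not tested.

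Adcy5 (chr16:35154877-35305738, plus strand) makes cAMP from ATP. Its level in striatum NT samples 1 to 4 was 229, 247, 296 and 274 CPM, and in striatum R6/2 samples 1 to 4 it was 77.5, 76.8, 68.9 and 68.8 CPM. The ranges were far apart, and the R6/2 values lay within 10 CPM of each other. The group means were 261 ± 29.4 CPM and 73.0 ± 4.78 CPM (SD, n = 4), from 713 and 215 reads, and the log2 fold change was -1.84 (SE 0.15, adjusted p = 2.4e-05, edgeR). All 17 alternative settings that gave a value kept this call. The setting that left out incomplete reads (described further on) gave no value for Adcy5. It had 22 complete reads in striatum R6/2, 1 to 8 a sample.

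Pde10a (chr17:8525372-8986648, plus strand) hydrolyses both cAMP and cGMP. In striatum NT samples 1 to 4 it stood at 231, 273, 263 and 213 CPM. In striatum R6/2 samples 1 to 4 it stood at 45.6, 40.0, 76.3 and 59.0 CPM. The lowest NT sample was thus well above the highest R6/2 sample, and the means were 245 ± 27.7 and 55.2 ± 16.2 CPM (SD, n = 4). The log2 fold change was -2.18 (SE 0.21, adjusted p = 1.2e-04, edgeR), the largest of the 8, and all 18 alternative settings kept the call. Pde10a made up 23.8 to 38.5% of the summed CPM of the 7 phosphodiesterases in striatum NT and 8.49 to 19.2% in striatum R6/2.

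Pde1b (chr15:103503034-103530052, plus strand), a calcium- and calmodulin-stimulated enzyme that hydrolyses both nucleotides, varied with the number of count sets. Striatum NT samples 1 and 2, with 2 sets each, had 323 and 329 CPM, and samples 3 and 4 had 189 and 117 CPM. Striatum R6/2 samples 2 and 3, with 2 sets each, had 131 and 236 CPM, and samples 1 and 4 had 97.2 and 71.3 CPM. The ranges of the genotypes overlapped over all 8 samples, but among samples with the same number of sets each R6/2 sample was below each NT sample. The mean fell from 326 to 184 CPM among the 2-set samples (log2 -0.83) and from 153 to 84.2 CPM among the 1-set samples (log2 -0.86). The fitted log2 fold change was -0.87 (SE 0.21, adjusted p = 0.032, edgeR with the count-set term). Without that term the value was -0.86 but the adjusted p was 0.50, and the adjusted p was 0.088 with ISM reads (incomplete reads, described further on) left out and 0.087 with the first count set only. The call was also lost when NT sample 1, 2 or 3 or R6/2 sample 1, 2 or 4 was left out, with adjusted p of 0.052, 0.063, 0.13, 0.071, 0.16 and 0.12 in that order.

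Pde2a (chr7:101421691-101512827, plus strand) is activated by cGMP and hydrolyses both nucleotides. Striatum NT samples 1 to 4 had 258, 285, 213 and 122 CPM, and striatum R6/2 samples 1 to 4 had 89.6, 173, 196 and 71.3 CPM. As for Pde1b, 2-set samples were higher in each genotype, the ranges overlapped over all 8 samples, and each R6/2 sample was below each NT sample with the same number of sets. The mean was 271 CPM in NT and 185 CPM in R6/2 among 2-set samples, and 168 and 80.4 CPM among 1-set samples. The log2 fold change was -0.81 (SE 0.19, adjusted p = 0.029, edgeR), which became -0.76 with an adjusted p of 0.49 without the count-set term. The adjusted p was 0.12 with ISM reads left out and 0.099 with the first count set only. Leaving out NT sample 2 or 3 or R6/2 sample 1, 2, 3 or 4 gave adjusted p of 0.062, 0.12, 0.10, 0.12, 0.065 and 0.12.

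Pde1a (chr2:79834453-80129458, minus strand) is the paralogue of Pde1b with the same calcium and calmodulin control. It ranged from 5.08 to 47.3 CPM in striatum NT and from 11.7 to 36.8 CPM in striatum R6/2, with a log2 difference of -0.20 (SE 0.41, adjusted p = 0.88, edgeR). Its direction turned when NT sample 1 (0.17) or R6/2 sample 3 (0.25) was left out.

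Pde4b (chr4:102087543-102607259, plus strand) belongs to the cAMP-specific PDE4 family. Striatum NT samples 1 to 4 had 77.6, 59.2, 54.2 and 81.3 CPM, and striatum R6/2 samples 1 to 4 had 54.7, 73.5, 81.6 and 59.0 CPM. The ranges were almost the same, and the log2 difference was 0.04 (SE 0.20, adjusted p = 0.97, edgeR). The sign of this value changed between settings.

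Pde7b and Pde4d, both cAMP-specific, failed the filter on low counts, and their values come from the fit without it. Pde7b (chr10:20398004-20725078, minus strand) had 21.0, 23.5, 34.5 and 15.2 CPM in striatum NT samples 1 to 4, from 69 reads in all. In striatum R6/2 samples 1 to 4 it had 12.2, 10.8, 10.6 and 7.37 CPM, from 31 reads, so that the ranges did not overlap. The log2 fold change was -1.18 (SE 0.36, adjusted p = 0.037, edgeR without the filter), and -1.20 with an adjusted p of 0.18 by DESeq2. Leaving out 1 sample let Pde7b pass the filter in 5 of 8 cases, with an adjusted p of 0.030 without NT sample 4 and 0.10 to 0.13 without R6/2 sample 1, 2, 3 or 4. Pde4d (chr13:108449948-109953461, plus strand) had 0 to 13.1 CPM in striatum NT and 2.12 to 14.7 CPM in striatum R6/2, with a log2 difference of -0.35 (SE 0.51, adjusted p = 0.83). NT sample 4 had 0 reads of Pde4d, which allows up to 15.2 CPM by counting error alone.

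**Figure D1:**
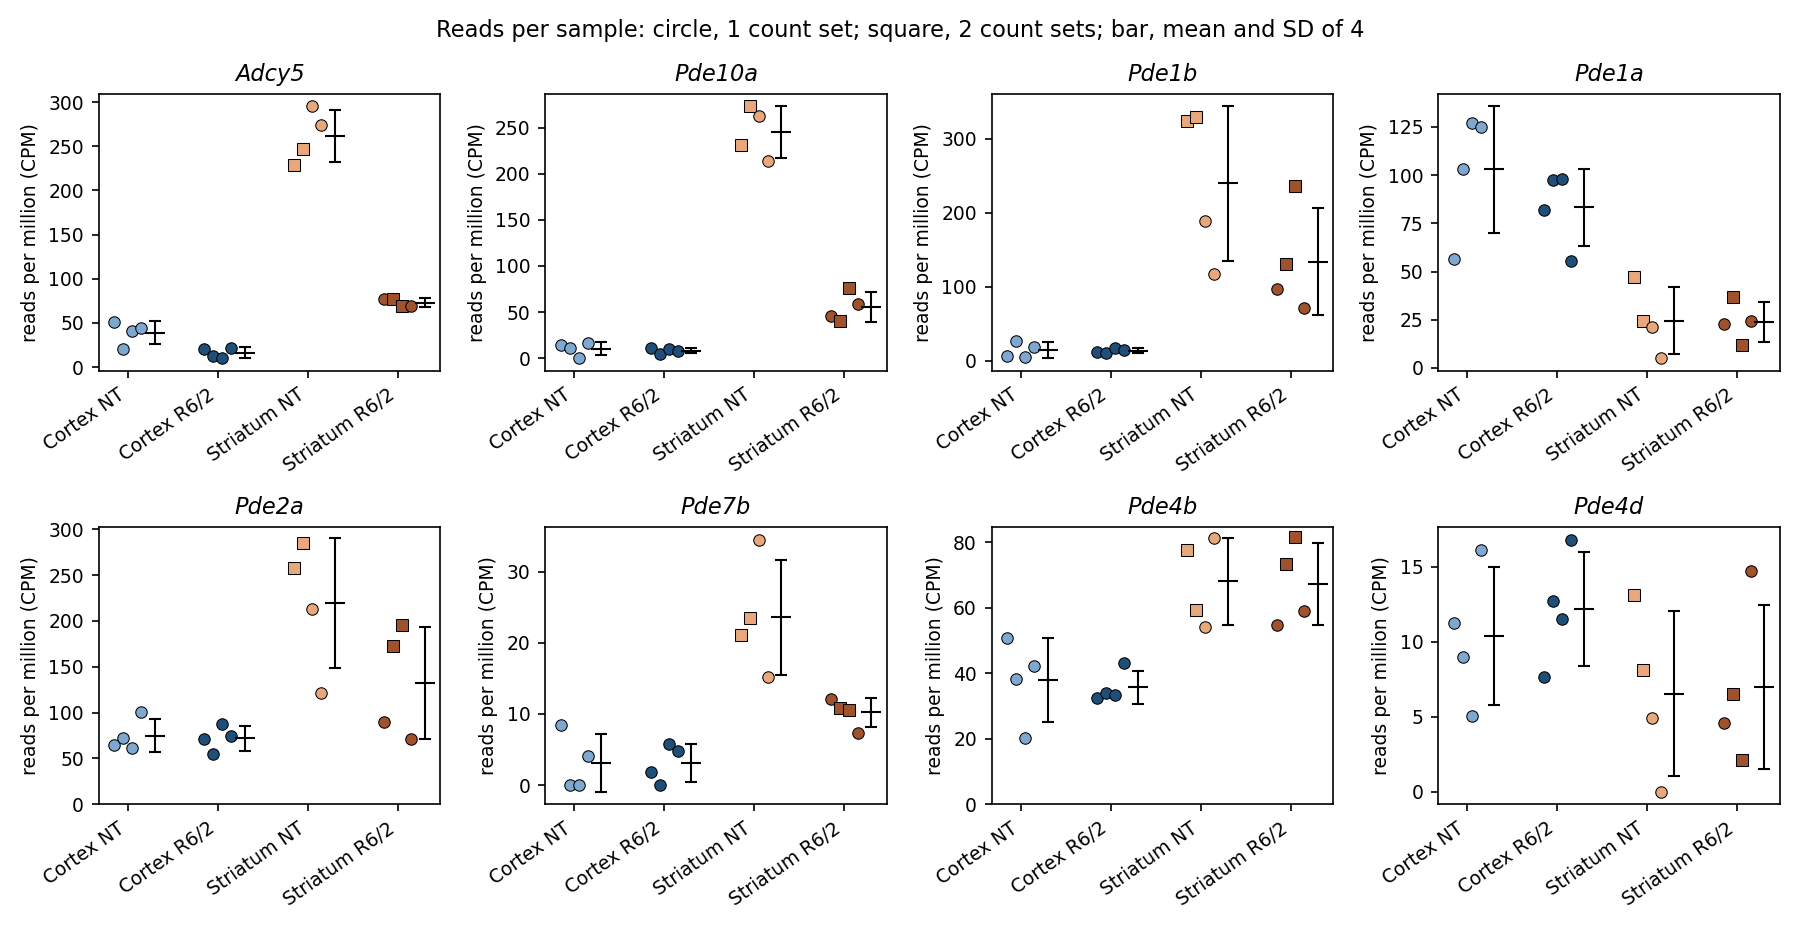
Level of each gene in every sample, in CPM (vertical axis, linear, scaled per gene) for the 4 groups (horizontal axis). Points are samples (circle, 1 count set; square, 2 count sets), and bars are the mean and SD of 4. Adcy5 and Pde10a fall apart by genotype in the striatum, Pde1b and Pde2a fall in R6/2 but overlap, and Pde1a is highest in cortex.

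The same comparison in the cortex found no call among the 8 genes. Only Pde1a, Pde2a and Pde4b passed the filter, against a background of 3.27% of 6120 genes called in either direction (2.81% lower, 0.458% higher). Of the 3 genes, 0 had an unadjusted p under 0.05 by edgeR and 0 were called by DESeq2.

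Cortical Pde1a was 56.4 to 127 CPM in NT and 55.3 to 98.2 CPM in R6/2, and the log2 difference was -0.26 (SE 0.25, adjusted p = 0.64). Pde2a was 61.0 to 101 CPM in NT and 55.2 to 88.1 CPM in R6/2, with a log2 difference of -0.07 (SE 0.23, adjusted p = 0.92). Pde4b was 20.3 to 50.8 CPM in NT and 32.5 to 43.3 CPM in R6/2, with a log2 difference of -0.16 (SE 0.28, adjusted p = 0.82).

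Adcy5 was the cortical gene nearest to a call. Cortex NT samples 1 to 4 had 50.8, 20.2, 40.7 and 44.4 CPM, and cortex R6/2 samples 1 to 4 had 21.0, 12.7, 10.1 and 21.6 CPM. All R6/2 samples were below NT samples 1, 3 and 4, while NT sample 2 lay among them. The log2 fold change in the fit without the filter was -1.21 (SE 0.36, adjusted p = 0.051), from 57 reads in NT and 33 in R6/2. Without NT sample 2 it was -1.51 with an adjusted p of 0.028, and with reads of the genomic class added it was -1.25 with an adjusted p of 0.046. In these cortical samples the summed striatal projection neuron markers were also lower in R6/2 (95.5 to 126 CPM) than in NT (391 to 476 CPM), with Ppp1r1b and Penk called, and their part in the Adcy5 value was not tested.

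The other 4 genes were near the limit of detection in cortex. Pde10a had 18 reads in NT and 18 in R6/2, Pde1b 24 and 29, Pde7b 5 and 7, and Pde4d 17 and 25. Their log2 differences without the filter were -0.42 (SE 0.53), -0.15 (SE 0.45), 0.03 (SE 0.88) and 0.13 (SE 0.51) in that order. Cortex NT sample 3 had 0 reads of Pde10a, which allows up to 15.2 CPM.

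**Figure D2:**
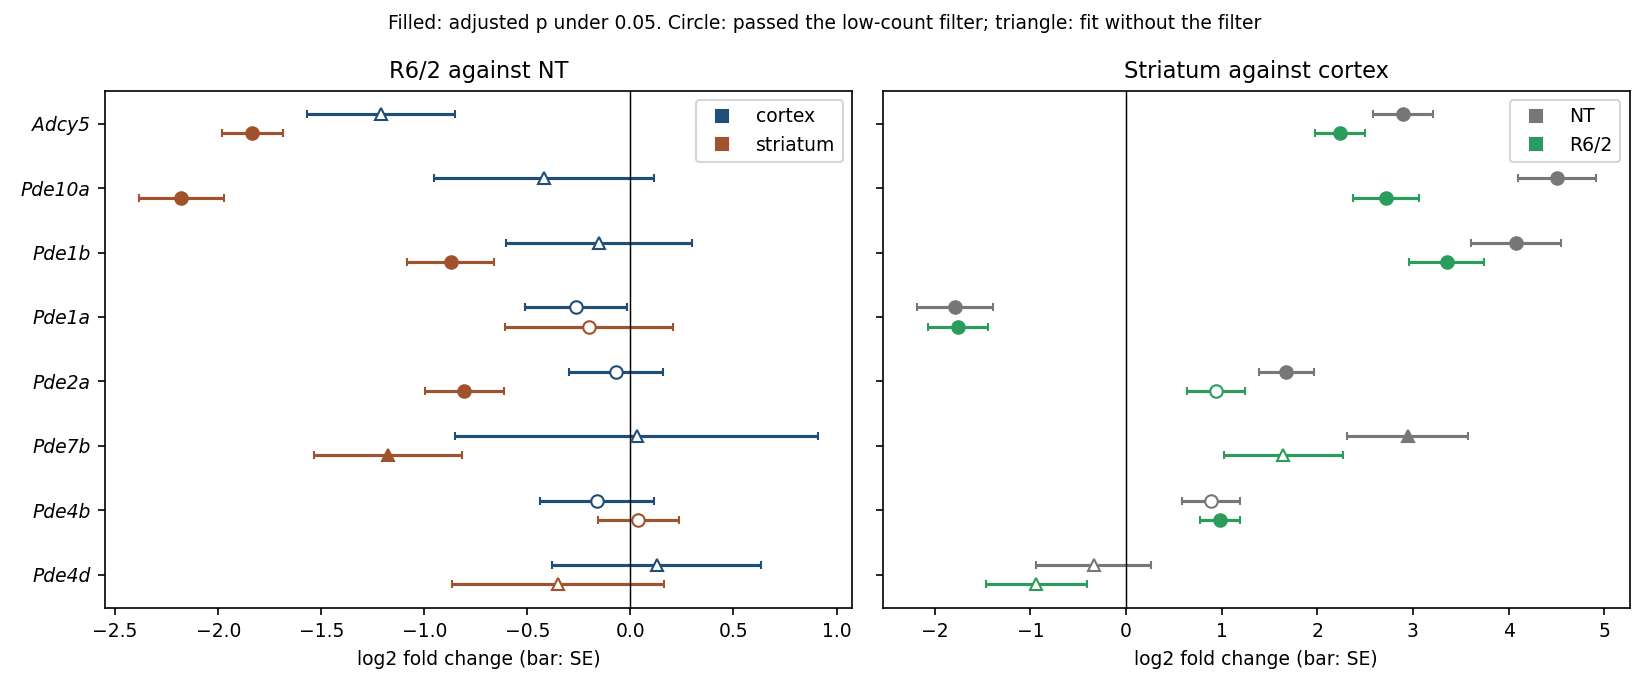
Fitted log2 fold change of each gene (horizontal axis, bar: SE) for R6/2 against NT in cortex and striatum (left) and for striatum against cortex in NT and R6/2 (right). Filled symbols have an adjusted p under 0.05 and triangles come from the fit without the filter. On the left Pde10a at -2.18 and Adcy5 at -1.84 in the striatum lie farthest from 0, and on the right Pde1a alone is called lower in striatum.

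The difference between the striatal and cortical genotype effects was tested as an interaction over the 16 samples. Of the 6 genes tested 0 were called by edgeR and 0 by DESeq2, against 0.0406% of 7389 genes in either direction (0.0271% higher, 0.0135% lower), and 2 had an unadjusted p under 0.05. The interaction (striatal minus cortical log2 fold change) was -1.69 for Pde10a (SE 0.56, adjusted p = 0.79) and -0.71 for Pde2a (SE 0.30, adjusted p = 0.85). With genomic-class reads added, which raised the Pde10a count from 914 to 1790 reads, the Pde10a interaction was -2.17 with an adjusted p of 5.2e-04. For Adcy5 the interaction was -0.55 (SE 0.38, adjusted p = 0.88), so the data do not show that its striatal and cortical effects differed. It was -0.66 for Pde1b (SE 0.51), 0.09 for Pde1a (SE 0.50) and 0.23 for Pde4b (SE 0.33).

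Between regions, 4 of the 6 genes that passed the filter were higher in striatum than in cortex of NT mice and 1 was lower, against 5.87% and 3.57% of 6167 genes tested (9.44% in either direction). Adcy5, Pde10a and Pde1b failed the filter in the cortical comparison and entered this one through the striatum, where they are high, so the count is only a description, as it is in R6/2 mice. With no filter, where all 8 genes were tested, Pde7b was also called higher, with values given below. The shares above, of the filtered genes, do not apply to that fit. Pde10a was 22.7-fold higher (log2 4.51, SE 0.41, adjusted p = 9.6e-05), Pde1b 16.8-fold (4.07, SE 0.47, adjusted p = 3.9e-04), Adcy5 7.44-fold (2.89, SE 0.31, adjusted p = 3.0e-04) and Pde2a 3.20-fold (1.68, SE 0.29, adjusted p = 0.0041). Pde1a was 3.46-fold lower (log2 -1.79, SE 0.40, adjusted p = 0.016). Pde4b did not pass (0.89, SE 0.30, adjusted p = 0.091). In the fit without the filter Pde7b was 7.69-fold higher in striatum (log2 2.94, SE 0.63, adjusted p = 1.8e-04) and Pde4d did not differ by more than its error (-0.34, SE 0.60). With genomic-class reads added the Pde10a value was 3.47, with ISM reads left out the Pde2a value was 2.45, and with the count-set term the Pde1a value was -2.38. The Pde1a call was lost without striatum NT sample 3 (adjusted p = 0.054) or cortex NT sample 4 (adjusted p = 0.053) and with the label number as a block (adjusted p = 0.066).

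In R6/2 mice, Adcy5, Pde10a, Pde1b and Pde4b were higher in striatum and Pde1a lower, against 7.79% and 6.87% of 6974 genes tested (14.7% in either direction). The fold over cortex was 6.60 for Pde10a (log2 2.72, SE 0.34), 10.2 for Pde1b (3.35, SE 0.40), 4.71 for Adcy5 (2.24, SE 0.26) and 1.98 for Pde4b (0.99, SE 0.21), with adjusted p of 4.5e-04, 3.2e-04, 2.9e-04 and 0.0089 in that order. With genomic-class reads added the Pde10a value was 1.29, and with the count-set term the Pde1b value was 2.70, both still called. Pde1a was 3.38-fold lower (-1.76, SE 0.32, adjusted p = 0.0039). Pde2a did not pass (0.94, SE 0.30, adjusted p = 0.058), and passed without striatum R6/2 sample 1 (adjusted p = 0.036) or 4 (adjusted p = 0.013). The Pde2a value ran from 0.24 with the count-set term (adjusted p = 0.45) to 2.45 with ISM reads left out (adjusted p = 0.0024), and it also passed with no filter (adjusted p = 0.0026), with genomic-class reads added (adjusted p = 0.046) and with the label number as a block (adjusted p = 0.048). Without the filter Pde7b was at 1.65 (SE 0.62, adjusted p = 0.082) and Pde4d at -0.94 (SE 0.53, adjusted p = 0.35). The region comparisons share their samples with the genotype comparisons, so they are not independent of them.

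Ordered by group, Adcy5 and Pde10a ran from striatum NT through striatum R6/2 to cortex NT and cortex R6/2, and only the cortical pair overlapped. Pde1b had the same order, with overlap between the genotypes within each region. Pde2a had the same order with every neighbouring pair overlapping. Pde1a was higher in both cortical groups than in either striatal group, and each genotype pair overlapped. Pde4b was higher in both striatal groups than in either cortical group (54.2 CPM was the lowest striatal and 50.8 CPM the highest cortical value). For Pde7b the striatal genotypes lay apart from each other and each from the cortex of its own genotype, and the cortical genotypes overlapped. These Pde7b values rest on few reads. Cortex NT sample 3 had 0 reads, which allows up to 15.2 CPM, and the lowest striatum NT value was 15.2 CPM from 3 reads. Cortex R6/2 sample 2 had 0 reads, which allows up to 6.37 CPM, and the lowest striatum R6/2 value was 7.37 CPM from 3 reads. For Pde4d every neighbouring pair overlapped.

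The isoform tables assign each read to a class. A known read matches an annotated transcript, an incomplete splice match (ISM) holds only a run of its exons, NIC and NNC reads join known or new splice sites in a new way, and genomic-class reads are those that the classifier sets apart from these. Genomic reads were left out of the levels above. Their share was 5.39% of Adcy5 reads, 13.2% of Pde2a, 27.4% of Pde1b, 27.5% of Pde1a, 48.9% of Pde10a, 52.6% of Pde4b, 77.5% of Pde7b and 84.0% of Pde4d. For Pde1b, 460 of the 482 genomic reads were 1 single-exon form of 2374 nt.

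**Figure D3:**
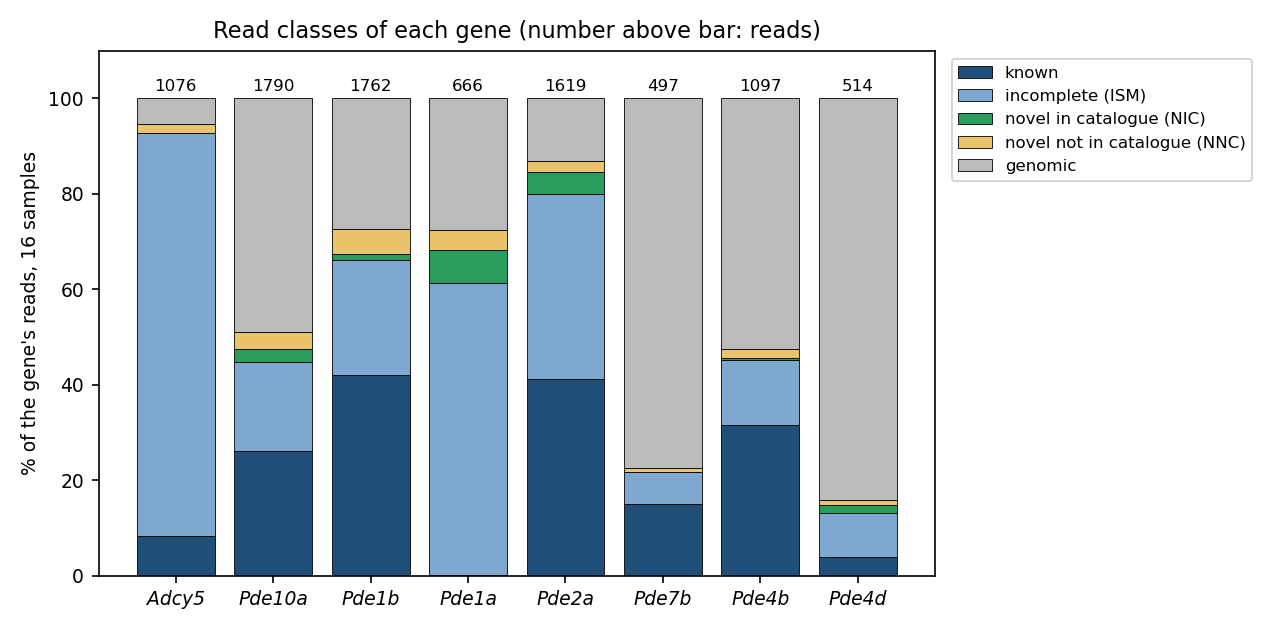
Share of each gene's reads by class (vertical axis, percent, all 16 samples) for the 8 genes (horizontal axis), with the number of reads above each bar. Adcy5 and Pde1a reads are mostly incomplete, and Pde7b and Pde4d reads are mostly of the genomic class.

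Genomic-class reads of Pde10a stood at 142 to 417 CPM in striatum NT, 43.2 to 68.4 CPM in striatum R6/2, 18.0 to 50.4 CPM in cortex NT and 36.3 to 41.9 CPM in cortex R6/2. Striatum NT lay above the other groups, while striatum R6/2 overlapped cortex NT and the cortical genotypes overlapped. Pde7b genomic reads were 48.6 to 183 CPM in striatum NT and 23.3 to 54.1 CPM in striatum R6/2. With them added, Pde7b passed the filter in the striatal genotype comparison and was called lower, with a log2 fold change of -1.38 (SE 0.19, adjusted p = 5.4e-04). In the striatum, genomic reads of Pde1b went against the count-set pattern of its level. In 2-set samples they stood at 47.3 and 62.4 CPM in NT and 23.8 and 31.8 CPM in R6/2. In 1-set samples they stood at 192 and 442 CPM in NT and 72.9 and 81.1 CPM in R6/2.

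Adcy5 was read mostly in fragments. Its annotated transcript has 21 exons and 7007 nt, and 89 of 1018 reads matched it in full (ENSMUST00000114913). Another 442 reads (43.4%) were a single-exon ISM form of 2125 nt, with 307 of these in striatum NT and 97 in striatum R6/2. Single-exon reads were 43.2% of Adcy5 reads in striatum NT and 45.6% in striatum R6/2, and reads with more than 20 exons were 10.7% and 8.84%. The ISM share over the samples was 90.7 ± 5.93% in NT and 90.5 ± 4.55% in R6/2 (SD, n = 4, two-sided exact permutation p = 0.97, smallest possible 0.029).

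A pair of isoforms led the complete reads of Pde10a. ENSMUST00000089085, the coding form with 22 exons, took 48.7 ± 19.6% of complete reads in striatum NT and 44.4 ± 13.3% in striatum R6/2. ENSMUST00000141877, a 2-exon form annotated as a retained intron that begins at the same start site (chr17, 8801693), took 32.7 ± 24.1% and 36.8 ± 21.6% (SD, n = 4). The 2-exon form followed the number of count sets. In 2-set samples it took 6.84 and 22.0% in NT and 12.5 and 25.0% in R6/2, and in 1-set samples 38.9 and 63.0% in NT and 57.1 and 52.6% in R6/2, so that every 1-set sample was above every 2-set sample. The 1-set samples also had a shorter mean isoform length, and the part of length in this share was not tested. Known Pde10a reads matched transcripts annotated to begin at this start site or within 500 nt of it in 100% of cases in striatum NT. In striatum R6/2 the share was 99.2 ± 1.52% (exact permutation p = 1.0). These starts are those of the annotated transcripts, and where the reads themselves began was not measured. The ISM share was 34.8 ± 4.70% in NT and 31.2 ± 7.82% in R6/2 (exact permutation p = 0.49).

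The same isoform led Pde1b in every striatal sample. The 16-exon coding form ENSMUST00000023132 took 85.7 to 86.1% of complete reads in the 4 striatum NT samples and 80.0 to 93.2% in the 4 striatum R6/2 samples. The next form by reads was an ISM of 15 exons, with 184 of 1280 reads. In cortex 13 and 18 complete reads were too few to compare.

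Pde1a had 1 known read in all 16 samples. Its main form was a 14-exon ISM of 4055 nt with 280 of 483 reads (58.0%), and its complete reads were spread over NIC and NNC forms of 13 to 15 exons. The 13-exon NIC form had 1 of 28 complete reads in cortex NT and 8 of 29 in cortex R6/2, too few reads to enter the usage test.

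Known Pde4b reads matched transcripts with 4 annotated start sites. The short 10-exon coding form ENSMUST00000097949, which begins at position 102589723 of chr4, took 58.6 ± 6.83% of complete reads in striatum NT, 63.7 ± 9.98% in striatum R6/2, 37.9 ± 25.7% in cortex NT and 47.2 ± 17.1% in cortex R6/2. The long 15-exon form ENSMUST00000106904, which begins at 102421518, took 13.9 ± 13.5% and 12.8 ± 5.77% in striatum NT and R6/2 and 33.2 ± 27.8% and 29.1 ± 18.5% in cortex (SD, n = 4). The third form, ENSMUST00000097950 from 102570095, took 11.6 to 14.8% in all 4 groups. A 3-exon form annotated as a retained intron, ENSMUST00000172845 from 102087725, had 17 reads in all. The gene-level test of isoform usage did not pass for region in NT (adjusted p = 1.0) or in R6/2 (adjusted p = 0.99).

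Pde7b had 49 of its 75 known reads in a 2-exon form annotated as a retained intron (ENSMUST00000166147), against 7 in its 13-exon coding form ENSMUST00000020165. Pde4d had 20 known reads, 11 of them in the 10-exon form ENSMUST00000117420.

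Usage of the complete isoforms (the known, NIC and NNC classes, 10 reads or more) was tested with diffSpliceDGE. Enough isoforms were left for 4 genes in the striatal genotype comparison (Pde1b, Pde10a, Pde4b and Pde2a), 2 in the cortical one, 4 between regions in NT and 3 in R6/2. No gene passed a gene-level adjusted p of 0.05 (Simes), against 0.451% of 4437 genes in the striatal genotype comparison, 0.36% of 3058 in cortex, 0.271% of 3694 between regions in NT and 0.777% of 3992 in R6/2. The lowest adjusted p was 0.93, for Pde2a in the striatal genotype comparison, with an unadjusted p of 0.086. By Simes, 0 of these genes had an unadjusted p under 0.05 in the 4 comparisons. By the gene-level F test of the same fit, Pde2a had an unadjusted p of 0.027 in the striatal genotype comparison (adjusted p = 0.34) and Pde4b one of 0.039 between regions in R6/2 (adjusted p = 0.43), and 0 passed after adjustment.

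With incomplete reads counted, the shares of a pair of Pde2a forms lay apart between the regions. The 31-exon coding form ENSMUST00000211368 took 43.8 ± 3.48% of all Pde2a reads in striatum NT and 46.8 ± 9.09% in striatum R6/2, and 18.7 ± 13.3% and 12.2 ± 3.43% in cortex NT and R6/2 (SD, n = 4). Every striatal sample (34.5% or more) was above every cortical sample (30.0% or less). A 30-exon ISM form of 3974 nt went the other way. It took 2.36 ± 2.37% and 6.65 ± 0.885% in striatum NT and R6/2, and 19.5 ± 14.9% and 22.5 ± 8.15% in cortex NT and R6/2, again without overlap between regions. The ISM share of Pde2a as a whole was 41.2% and 36.8% in striatum NT and R6/2, and 70.2% and 78.4% in cortex. Among complete reads alone the 31-exon form took 74.4 ± 3.95% and 73.9 ± 5.68% in striatum NT and R6/2. In cortex NT and R6/2 it took 56.5 ± 42.1% and 58.1 ± 18.4% of complete reads, and the ranges of the regions overlapped.

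**Figure D4:**
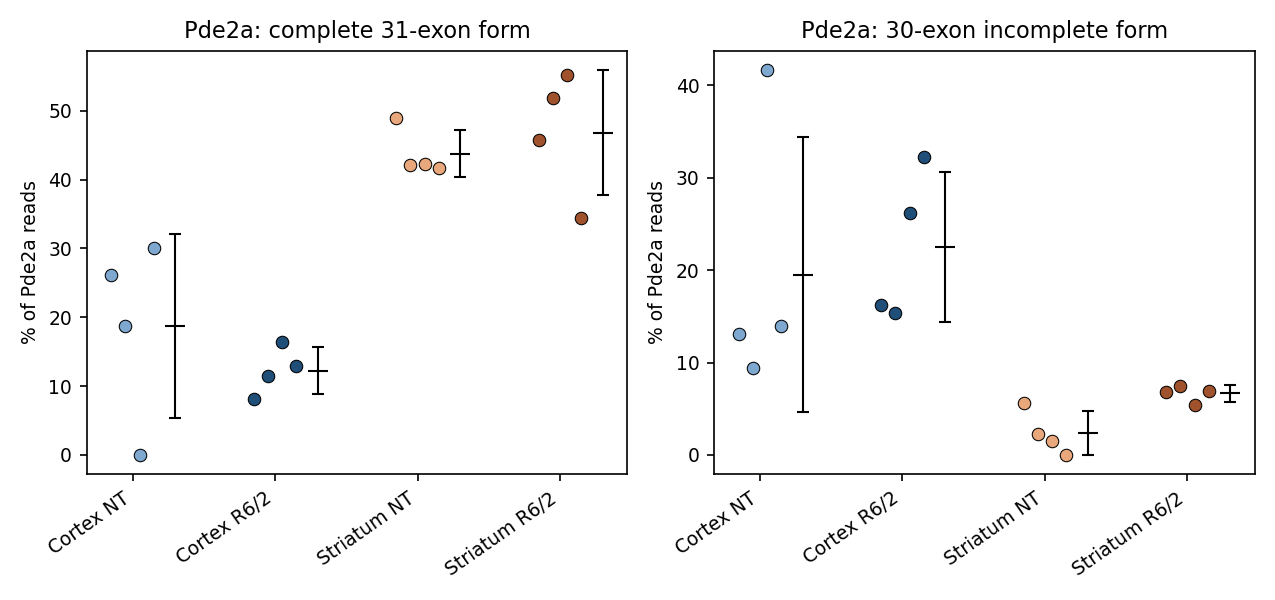
Share of Pde2a reads (vertical axis, percent) in the complete 31-exon form (left) and the 30-exon incomplete form (right) for the 4 groups (horizontal axis). Points are samples and bars are the mean and SD of 4. The 31-exon form takes 34.5% or more in every striatal sample and 30.0% or less in every cortical sample, and the 30-exon form is higher in cortex. Incomplete reads are counted in these shares, and among complete reads alone the 31-exon share overlapped between regions.

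In the usage test with ISM isoforms added, Pde2a passed between regions in R6/2 (gene-level adjusted p = 0.041), where the 30-exon form had an isoform-level adjusted p of 0.021. The share of all genes that passed with ISM isoforms added is not given here. The usage shares above are from the test of complete isoforms and do not apply to it. How common such a call was among all genes therefore cannot be told. In NT the 30-exon form had an unadjusted p of 8.4e-04 and an adjusted p of 0.16. The 31-exon form passed in neither, with an adjusted p of 1.0 in NT and 0.12 in R6/2. The deposited table places the 30-exon form under a second gene ID that also carries the symbol Pde2a (ENSMUSG00000030653, 205 of 1619 reads with genomic reads included). GENCODE M21 calls that ID Gm45837, a locus that spans chr7:101410886-101512819 and overlaps Pde2a on the same strand, so its reads cannot be told apart from Pde2a with certainty. If the 30 exons are the last 30 of its 32-exon transcript, the form begins at the exon chr7:101461480-101461541, inside the Pde2a gene. With this ID left out, Pde2a was called higher in the R6/2 striatum than in the R6/2 cortex (log2 1.36, SE 0.33, adjusted p = 0.018), and its fall in the R6/2 striatum stayed called (-0.84, adjusted p = 0.033).

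The share of ISM reads passed no test between genotypes for the genes with at least 10 reads in every sample of a region. In the striatum it was tested for Adcy5, Pde10a, Pde1b, Pde2a and Pde4b, with differences of -0.21, -3.60, -4.07, -4.43 and -12.0 percentage points (R6/2 minus NT) and exact permutation p of 0.97, 0.49, 0.51, 0.43 and 0.31. In the cortex it was tested for Pde1a and Pde2a, with differences of 2.41 and 8.14 points and exact permutation p of 0.54 and 0.29. The Benjamini-Hochberg adjusted p was 0.64 or above in the striatum and 0.54 in the cortex. With 4 against 4 samples the smallest p is 0.029.

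Other genes of the pathway were read as 4 lists. Of the 9 other adenylyl cyclases 2 passed the filter in the striatal genotype comparison, of 6 soluble guanylyl cyclase symbols 2, of 17 other phosphodiesterases 4 and of 13 cyclic nucleotide effectors 9. Only Pkig, an inhibitor of the cAMP-dependent protein kinase, was called, and it fell by 0.78 on the log2 scale (SE 0.20, adjusted p = 0.047), where 4.32% of all genes tested were called. Another pair came near: Pde8b, a cAMP-specific phosphodiesterase (-0.94, SE 0.28, adjusted p = 0.082), and Gucy1a3, a subunit of soluble guanylyl cyclase (-0.58, SE 0.18, adjusted p = 0.091). In the cortex none of the genes tested from these lists was called, where 3.27% of all genes were. Between regions none was called in NT, where 9.44% of all genes were. In R6/2, where 14.7% of all genes were called, Pkia, another inhibitor of the same kinase, was called higher in striatum (0.94, SE 0.25, adjusted p = 0.025) and no other gene of the lists was called.

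Genes with the most similar pattern were sought by the root mean square (RMS) difference of centred log2 CPM over the 16 samples, among 4756 genes with at least 20 reads per sample on average. For Adcy5 these were Hpca (0.48), Rasgrp2 (0.51) and Unc13c (0.55). For Pde10a they were Pcp4l1 (0.61), Mctp1 (0.63) and Hpca (0.68). For Pde1b they were Cx3cl1 (0.47), Actn2 (0.50) and Wfs1 (0.52). Pde1a was nearest to Nrip3 (0.39), Camk2g (0.43) and Syt13 (0.44). Pde2a was nearest to Acly (0.26), Gpsm1 (0.26) and Cdk16 (0.29), and Pde4b to Dctn4 (0.24), BC004004 (0.25) and Reep2 (0.26). Pde7b and Pde4d were too low to enter.

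**Figure D5:**
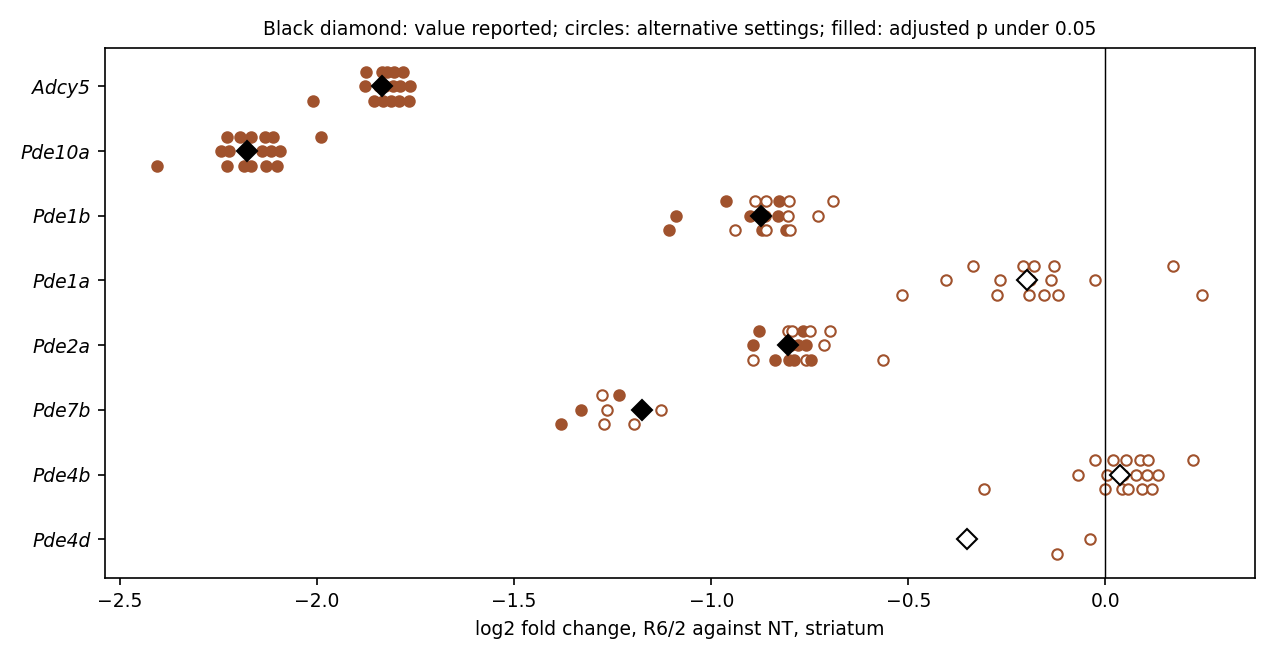
Log2 fold change of each gene for R6/2 against NT in the striatum (horizontal axis) under the settings that gave a value. The black diamond is the value reported, circles are alternatives and filled symbols have an adjusted p under 0.05. Pde10a and Adcy5 are filled wherever they have a value, and Adcy5 has none with ISM reads left out. Pde1b and Pde2a keep their direction and lose the call under some settings.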

How the data were processed

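RNA from flash-frozen cortex and striatum was sequenced by the authors as PacBio Iso-seq. Per the study's methods, reads were processed with ccs, lima and isoseq3 refine, aligned with minimap2 2.17-r941 to mm10, corrected with TranscriptClean and annotated with TALON against an Ensembl annotation. The deposited values are raw counts of full-length reads per isoform, unfiltered, so ISM and genomic-class reads remain. What the 2 count sets of 4 striatal samples are is not given in the sources used here.

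Here the sets were summed, and gene counts (known, ISM, NIC and NNC) were tested with edgeR 4.0.16 (TMM, filterByExpr, Benjamini-Hochberg at 0.05). Striatal genotype and interaction fits had a term for the number of count sets. CPM used the gene-assigned reads of each sample as library size, with TMM factors over 16 samples. Genes that failed the filter come from a fit without it. Isoform usage used diffSpliceDGE, and shares of single genes an exact permutation test. The expression fit and the isoform usage fit were run on simulated counts with known changes, and how many of these they recovered is not given here. Coordinates and start sites are from GENCODE M21 (mm10). All 8 genes were named, with isoforms at 10% or more of complete reads in a group (at most 4 a gene), and a minimum of 10 reads in all was added after values were seen. The genes and lists were chosen with earlier results of these data known. The labels do not state that samples came from separate mice, and p-values measure only the spread between these samples. Intervals and limits cover counting error only.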

Additional observations from a re-analysis of the deposited data

Results flagged for a closer look

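In cortex R6/2, Pde4b of sample 4 stood apart from the other 3 samples at 43.3 CPM, against 33.9 CPM for the nearest of them, a gap of 0.863 of the group's whole range. That sample had 18 reads of Pde4b. About 1 group of 4 in 20 is singled out by chance at this limit, and 32 groups were looked at. Pde4b was not called in the cortex with this sample or without it.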

How the results depend on the processing

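In the striatal genotype comparison 4 genes were called lower. The count was 1 with ISM reads left out, 2 with the first count set only, 2 without the count-set term and 2 to 5 when single samples were left out. Adcy5 gave no value with ISM reads left out, so it could not be called there. In the cortex 1 gene was called lower with genomic reads added, and 0 to 1 when single samples were left out. Between regions in NT the 1 lower call became 0 with ISM reads left out and 0 to 1 when single samples were left out, and in R6/2 it became 0 with ISM reads left out. Pde1a, the gene of these lower calls, gave no value with ISM reads left out. The interaction gained 1 lower call with genomic reads added, and isoform usage between regions in R6/2 gained 1 with ISM isoforms added.

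Directions that turned belonged to values that had not been called. With genomic reads added they were Pde10a in cortex (0.049), Pde4b in striatum (-0.31), the Pde4b interaction (-0.27) and, in the denominator, the Pde1a ISM share in cortex (-1.91 points). The others were Pde7b in cortex by DESeq2 (-0.022), Pde4b in striatum without the count-set term (-0.0020) and the Pde2a interaction with ISM reads left out (0.010). When single samples were left out, the log2 values ran from -0.19 to 0.13 for Pde2a in cortex, -0.52 to 0.25 for Pde1a and -0.069 to 0.13 for Pde4b in striatum, and -0.26 to 0.53 for the Pde1a interaction. The shares ran from -0.26 to 5.25 points (Pde1a ISM, cortex), -2.19 to 2.27 (Adcy5 ISM, striatum) and -1.41 to 0.74 (Pde2a start site, striatum). The cause was not tested.

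Samples with the same label number did not all deviate together. Their correlations ran from -0.57 to 0.62 between genotypes of a region and from -0.23 to 0.22 between regions in NT. Between regions in R6/2 they were 0.40, 0.19 and 0.38 for numbers 1 to 3, each the best partner of its own number, and -0.040 for number 4. With the number as a replicate block, the lower calls between regions in NT became 0, Pde2a between regions in R6/2 passed (adjusted p = 0.048), the Pde1a interaction was -0.0078, and 175 genes in place of 293 were called lower in the R6/2 striatum.

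Over all genes and alternatives, lower and higher calls ran from 39 to 452 and 0 to 154 in the striatal genotype comparison, and from 41 to 223 and 1 to 82 in the cortical one. Between regions, higher and lower calls ran from 189 to 1037 and 118 to 476 in NT, and from 346 to 1040 and 249 to 953 in R6/2. Leaving out the second Pde2a gene ID was chosen after seeing the data. Cortical depth limits Pde10a, Pde1b, Pde7b and Pde4d, which had 5 to 29 reads a group.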
